A study of Homo sapiens with 5 samples.

Results

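The classical protein tyrosine phosphatases are described here in HEK293, a human embryonic kidney cell line, with a stable copy of pcDNA4-PRL-1 or of the empty pcDNA4 vector. Members were all probe sets of the HG-U133 Plus 2.0 GeneChip whose annotation gives a single gene named PTPN with a number (non-receptor enzymes) or PTPR with a letter (receptors). The rule found 34 genes with 103 probe sets, of 19775 genes with 41091 probe sets that carry 1 gene symbol. They comprise 17 receptor genes (47 probe sets) and 17 non-receptor genes (56 probe sets). PRL-1 itself, encoded by PTP4A1, and the dual specificity phosphatases (DUSP) belong to other branches of the superfamily and were not counted. PTPRJ, PTPRT and PTPRQ were not analysed here.

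Classical tyrosine phosphatases remove phosphate from tyrosine through a cysteine in a conserved catalytic loop, and so set the level of tyrosine phosphorylation against the kinases. The receptors span the plasma membrane and carry ectodomains built from modules of adhesion molecules, and most have a membrane-distal catalytic domain with little or no activity. The non-receptor enzymes are placed by their flanking domains, such as SH2, FERM, PDZ or Sec14 domains, which bring them to activated receptors, the cell cortex or internal membranes.

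The question was which mRNAs change with stable PRL-1 expression, and the comparison used 2 arrays labelled PRL-1 and 3 vector arrays, each from an independent culture. A further PRL-1 array had been left out by the authors because its RNA showed no raised PRL-1 by qRT-PCR. Each group is 1 stable line, so the transgene and other differences between the lines cannot be told apart, and p-values measure only the spread between cultures. Values are MAS5 signals, an arbitrary linear brightness scaled to a common array mean, and the number of arrays limits their precision.

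PTP4A1 was examined first because it bears on the labels. Its brightest probe set (200733_s_at) gave 7913.5 and 7239.5 on the PRL-1 arrays and 7462.6, 7532.7 and 6807.2 on the vector arrays. These overlap, and the log2 fold change was 0.06 with a 95% interval from -0.19 to 0.31. The other 3 tested probe sets gave 0.09, 0.13 and 0.15, and in 1 of them (200730_s_at) the groups did not overlap, with 3269.7 and 2836.7 on the PRL-1 arrays and 2750.3, 2794.2 and 2824.7 on the vector arrays. All 4 thus lay above 0 and 0 were called. Whether they lie within the transcript of the construct was not given in the sources used here, so every direction below is that of arrays labelled PRL-1. Median signals were 124.2 and 143.4 on the PRL-1 arrays and between 135.4 and 165.9 on the vector arrays. The highest was that of vector replicate 3, which also correlated least with the other arrays (0.938 to 0.947 on the log2 scale). Of the HEK293 and kidney progenitor markers VIM, KRT8, KRT18, PAX2, LHX1 and PAX8, all 6 were measured and 0 were called. Their median log2 fold change was -0.28, with 4 genes below 0 and 2 above, against -0.03 over all genes tested. In the probe sets with the smallest p, KRT8 lay at 0.94, VIM at -0.53 and PAX2 at -0.75 (limma adjusted p 0.257, 0.314 and 0.341). Of the podocyte and tubule markers only AQP2 was measured, and of the endothelial markers only PECAM1.

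Most of the family gave measurable signals in these cells. Tests were run on probe sets whose signal reached 100 on at least 2 of the 5 arrays. Of the 103 member probe sets 64 passed (62.1%, against 61.9% of all 54613 probe sets), and they represent 28 genes, 14 of receptors and 14 of non-receptor enzymes. The remaining 39 probe sets comprise 33 that were under 100 on all arrays and 6 that reached 100 on 1 array. The genes without a tested probe set were PTPRC, PTPRH, PTPRR, PTPN5, PTPN20 and PTPN22. They include PTPRC (CD45) and PTPN22 (LYP), which act in leukocytes, PTPN5 (STEP), a neuronal enzyme that binds MAP kinases as PTPRR does, and PTPRH (SAP-1) of the digestive epithelium. PTPRC, which has 5 probe sets, reached at most 80.9 on any array. Its brightest probe set (212587_s_at) gave 21.0 and 45.8 on the PRL-1 arrays and 63.4, 15.0 and 80.9 on the vector arrays, so the groups overlapped under the minimum. Among the haematopoietic markers, CD14, LYZ, CORO1A and HCLS1 did not pass either, whereas LCP1, LAPTM5 and CD79A did. LCP1 (L-plastin), an actin-bundling protein of leukocytes that is also made by many cell lines, gave 2484.2 and 2341.6 on the PRL-1 arrays and 1804.9, 1851.1 and 1527.8 on the vector arrays. In their probe sets with the smallest p, LAPTM5 and CD79A reached 100 only on vector arrays, LAPTM5 on replicates 2 and 3 and CD79A on replicates 1 and 3.

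Members that reached the minimum more often had CpG-rich gene starts, which is given as a description. The window from 250 bases before to 50 bases after the RefSeq gene start (GRCh38.p14) was available for 31 of the 34 genes, and the start with the highest ratio of observed to expected CpG was taken for each gene. The median ratio was 0.94 over 25 tested members (0.10 to 1.16) and 0.27 over the 6 members that were not tested (0.12 to 0.82), against 0.63 over 27305 genes. A ratio under 0.5 was found at 3 of the tested genes, PTPN2, PTPN6 and PTPN7, and at 4 of the others, PTPRC, PTPRH, PTPRR and PTPN22, against 43.7% of all genes. The motif shares that follow are over every listed start, 40 windows of tested members and 10 of the others, not only the start taken above. The GC box letters GGGCGG, read on both strands, were in 52.5% of the windows of tested members and 40% of those of the others, against 45% of all windows. The TATA letters TATAAA, likewise on both strands, were in 12.5% and 0% of them, against 11.5% of all windows. At the start taken above, no member held TATAAA. The windows of PTPRZ1, PTPRK and PTPRC are printed to show CpG-rich starts and a CpG-poor one, 5′ to 3′, with every CG in capitals. PTPRZ1, the member with the smallest p, holds 38 CG (chr7:121872911-121873210, plus strand). PTPRK, a receptor whose signals overlapped between the lines, holds 44 (chr6:128520550-128520849, minus strand), and PTPRC, which did not reach the minimum, holds 1 (chr1:198638790-198639089, plus strand).
PTPRZ1: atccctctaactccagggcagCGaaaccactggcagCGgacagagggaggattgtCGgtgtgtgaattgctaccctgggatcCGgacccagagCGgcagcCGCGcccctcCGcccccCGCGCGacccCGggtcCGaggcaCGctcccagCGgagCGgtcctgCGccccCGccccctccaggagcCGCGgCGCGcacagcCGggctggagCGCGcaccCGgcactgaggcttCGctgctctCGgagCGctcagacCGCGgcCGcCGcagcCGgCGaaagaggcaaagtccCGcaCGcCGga
PTPRK: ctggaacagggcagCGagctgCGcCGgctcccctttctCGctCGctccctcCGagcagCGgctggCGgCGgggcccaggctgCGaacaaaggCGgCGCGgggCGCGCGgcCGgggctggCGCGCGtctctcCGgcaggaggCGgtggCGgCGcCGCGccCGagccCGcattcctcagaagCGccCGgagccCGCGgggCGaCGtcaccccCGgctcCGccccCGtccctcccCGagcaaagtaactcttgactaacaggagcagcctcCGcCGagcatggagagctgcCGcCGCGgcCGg
PTPRC: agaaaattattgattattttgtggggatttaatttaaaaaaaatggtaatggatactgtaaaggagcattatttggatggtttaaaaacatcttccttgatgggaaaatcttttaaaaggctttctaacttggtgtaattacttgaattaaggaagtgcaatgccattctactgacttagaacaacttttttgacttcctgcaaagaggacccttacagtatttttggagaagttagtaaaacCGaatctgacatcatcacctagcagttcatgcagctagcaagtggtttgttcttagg

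**Figure D1:**
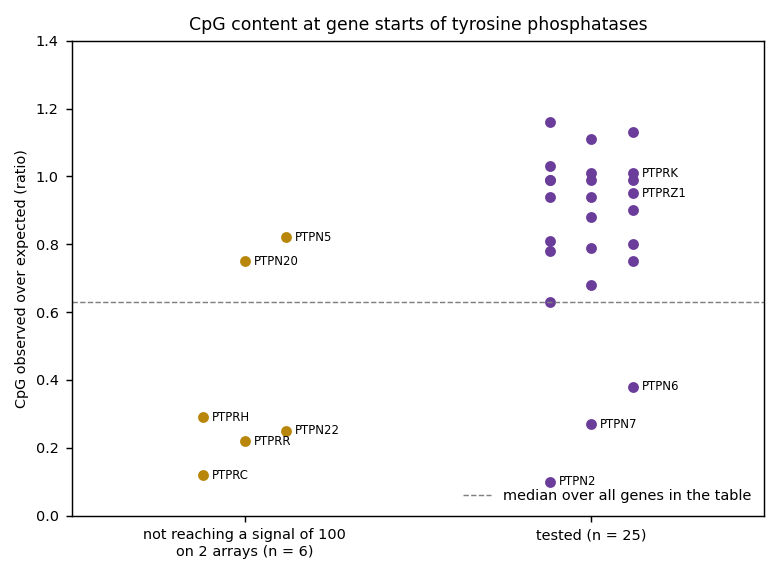
Ratio of observed to expected CpG (vertical axis, no unit) in the 300 bases around the gene start, for 6 member genes that did not reach a signal of 100 on 2 arrays (left) and 25 tested member genes (right), each point a gene. The dashed line is the median of 0.63 over all genes, and 4 of the points on the left and 3 on the right lie under 0.5.

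Across the family no transcript passed the test between the lines, and most lay within a narrow range. At a Benjamini-Hochberg adjusted p of at most 0.05 in limma, 0 of the 64 tested member probe sets were called, against 65 of 33818 over the array (0.192%), of which 20 were higher (0.0591%) and 45 lower (0.133%) on the PRL-1 arrays. At an unadjusted p under 0.05 limma gave 4 members (6.25%, against 9.72% of all tested probe sets), in PTPRZ1, PTPN9, PTPN11 and PTPN2. The methods' t-test on the same values also gave 4 members at that level and 0 after adjustment. The 95% interval of the log2 fold change lay inside -1 to 1 for 52 members (81.2%, against 70.3% of all). A log2 fold change beyond 1 in either direction was measured for 2 members (3.12%, against 3.27%), PTPRZ1 and PTPRN2, whose PRL-1 signals were all under 100, so that these are fitted values and not measured folds. The 14 member probe sets that reached 1000 on all arrays, from 11 genes, had log2 fold changes between -0.38 and 0.19.

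The median log2 fold change was -0.06 over the members, with quartiles of -0.27 and 0.04, and -0.04 over all tested probe sets, with quartiles of -0.24 and 0.15. It lay below 0 for 43 members (67.2%, against 55.1% of all) and above 0 for 21. After quantile normalization 34 of the 64 lay below 0 (53.1%, against 49.5%), and after median centring 37 (57.8%, against 49.2%). Vector replicate 3 held the highest of the 5 signals for 32 members (50%, against 38.5%), and its part in the direction was not tested beyond leaving it out, when 39 members lay below 0 (60.9%, against 51.1%). The groups did not overlap for 17 members (26.6%, against 28.9%), with the PRL-1 arrays higher for 4 and lower for 13, against 12.8% and 16.1% of all. Receptors gave a median of -0.14, with 21 probe sets below 0 and 5 above. Non-receptor enzymes gave -0.04, with 22 below and 16 above. Leaving out vector replicate 3 gave 15 receptor probe sets below 0 and 11 above, with a median of -0.03. After quantile normalization the counts were 17 and 9 for the receptors (median -0.08) and 17 and 21 for the non-receptor enzymes (median 0.03), so the side on which most non-receptor probe sets lay turned with the scaling. Of the 17 genes with at least 2 tested probe sets, 8 had all of them below 0, 0 had all above and 9 had both signs, against 5, 2 and 10 after quantile normalization.

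**Figure D2:**
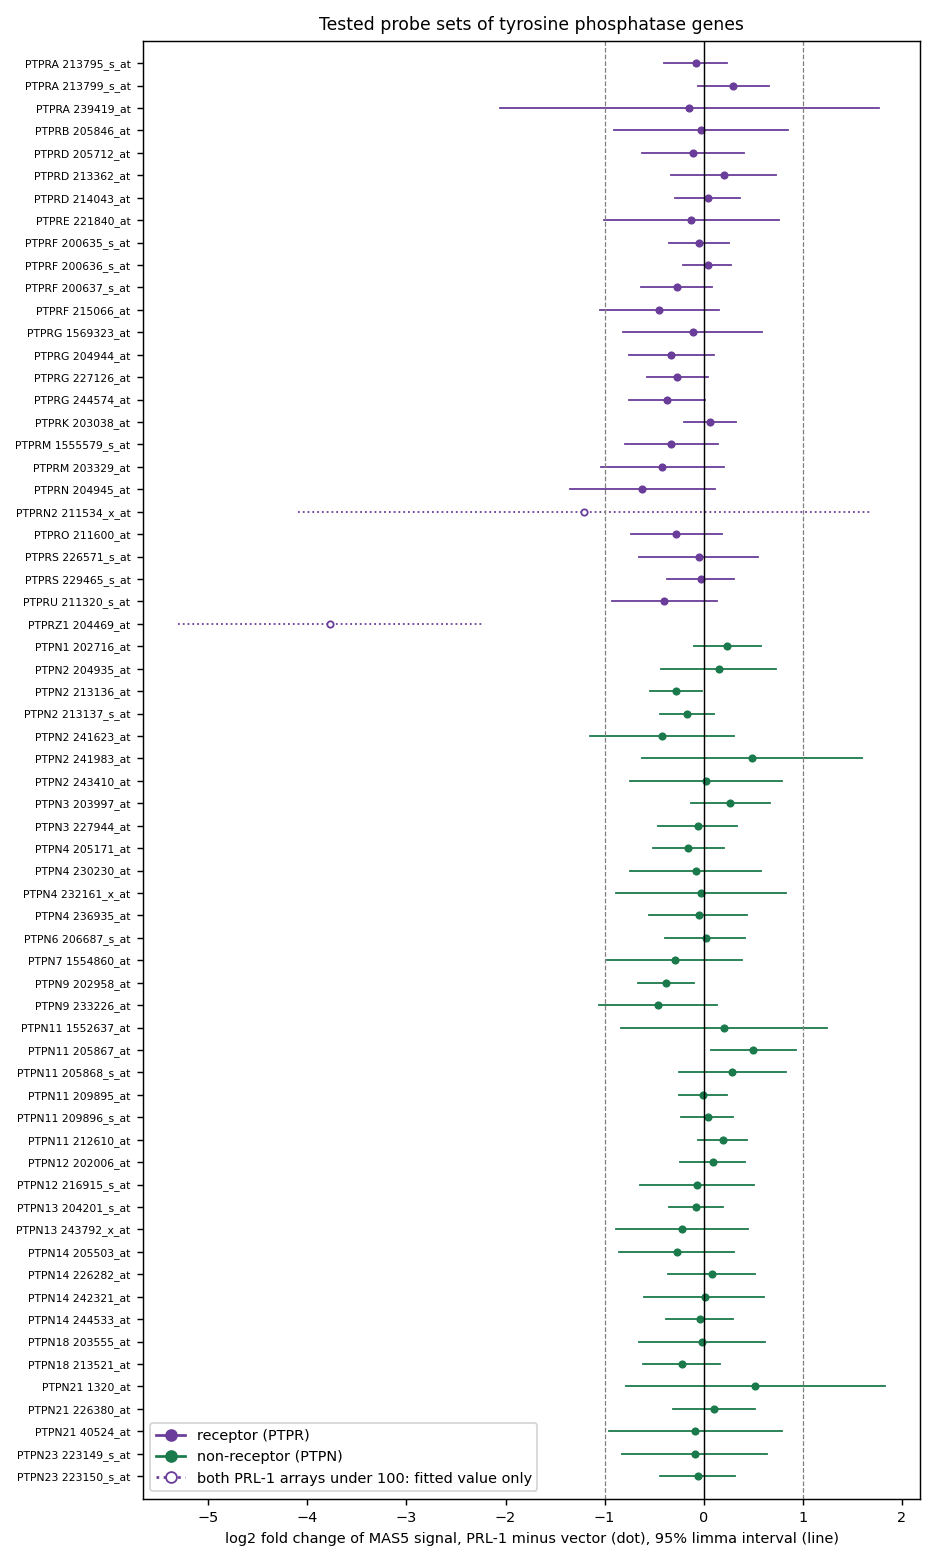
Log2 fold change of the MAS5 signal, PRL-1 minus vector (horizontal axis), for the 64 tested probe sets of receptor (violet) and non-receptor (green) genes, with the dot at the estimate and the line at its 95% limma interval. Dashed lines mark -1 and 1, and open dots with dotted lines mark the fitted values of PTPRZ1 and PTPRN2, whose PRL-1 arrays were under 100 and which are the only members with an estimate beyond those lines.

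PTPRZ1 had the smallest p of the family. It encodes a receptor of neural precursors and glia whose ectodomain holds a carbonic anhydrase-like domain and is rich in chondroitin sulfate, and which binds pleiotrophin, midkine and contactin 1. Its probe set (204469_at) gave 12.2 and 27.0 on the PRL-1 arrays and 169.2, 166.9 and 535.9 on the vector arrays. All 3 vector signals were above the minimum and both PRL-1 signals were far under it, and vector replicate 3 was the highest of the vector arrays. The mean was 19.6 ± 10.4 (SD, n = 2) on the PRL-1 arrays and 290.7 ± 212.4 (SD, n = 3) on the vector arrays. Since both PRL-1 signals were under 100, that group was set to 100 for a bound, which gives at least 2.47-fold lower. The bound takes the mean log2 signal of all 3 vector arrays, so it rests in part on vector replicate 3. Vector replicates 1 and 2, at 169.2 and 166.9, lay nearer to 100 than that bound. The limma adjusted p was 0.116. The size of the difference beyond that bound was not measured. Whether PTPRZ1 was called depended on the model. With array weights the adjusted p was 0.0248 and with the replicate number as a block it was 0.043. Leaving out vector replicate 3 gave 0.145, and leaving out PRL-1 replicate 1 gave 0.624, the highest over the 13 of 14 alternatives that gave a value. In all 13 the fitted difference lay below 0. Both PRL-1 signals lay under every vector signal, so the sign could hardly turn and its constancy adds no support. Among the neuronal markers, 6 of 8 were measured, with STMN2 and NEFM under the minimum on at least 4 arrays. Over the measured genes the median log2 fold change was -0.55, with 5 below 0 and 1 above, against a median of -0.03 over all genes tested. The summed signal of the whole list ranged from 48372.5 to 49554.4 on the PRL-1 arrays and from 45985.4 to 51880.8 on the vector arrays. Of these markers SYT1, a calcium sensor of synaptic vesicles, was called lower on the PRL-1 arrays (145.7 and 161.6 there, against 468.8, 599.4 and 533.3 on the vector arrays, limma adjusted p 0.00952). The part of this in the PTPRZ1 value was not tested.

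PTPRG, the other receptor with a carbonic anhydrase-like domain, lay below 0 in all 4 of its tested probe sets (-0.27, -0.37, -0.11 and -0.33) and was called in none. All 4 stayed below 0 after quantile normalization and median centring, and 3 of them did without vector replicate 3. Its probe set with the smallest p (244574_at) gave 450.2 and 464.5 on the PRL-1 arrays and 590.5, 513.3 and 685.0 on the vector arrays. The groups did not overlap, and the log2 fold change was -0.37 with a limma adjusted p of 0.519. The brightest (227126_at) gave 1398.2 and 1119.3 on the PRL-1 arrays and 1476.1, 1551.6 and 1486.1 on the vector arrays, again without overlap (-0.27, adjusted p 0.56 in limma).

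Among the binding partners of these receptors, contactin 1 was called and the soluble ligands were not. CNTN1, a GPI-anchored adhesion molecule of axons and glia that binds PTPRZ1, was called lower on the PRL-1 arrays in 3 probe sets. The probe set with the smallest p (227209_at) gave 71.1 and 63.6 on the PRL-1 arrays and 780.1, 830.0 and 784.7 on the vector arrays, at least 7.98-fold lower (limma adjusted p 0.000143). Another (211203_s_at), above the minimum on every array, gave 158.6 and 166.6 on the PRL-1 arrays and 599.0, 553.6 and 633.6 on the vector arrays. There the log2 fold change was -1.87 (limma adjusted p 0.00532). The replicates of CNTN1 lay closer together than those of PTPRZ1 on both sides. MDK (midkine, 209035_at) gave 900.4 and 854.6 on the PRL-1 arrays and 638.7, 597.7 and 685.1 on the vector arrays, with no overlap and a value of 0.46 for the log2 fold change, not called (limma adjusted p 0.33). PTN (pleiotrophin) had 2 tested probe sets, at 0.59 and -0.07, and both overlapped between the groups. CNTN3, CNTN4, CNTN5 and CNTN6 did not reach the minimum on 2 arrays. Over the 3 of these 7 genes that were measured, 1 gene was called lower and 0 higher, and the median log2 fold change was -0.07, against -0.03 over all 14546 genes tested.

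**Figure D3:**
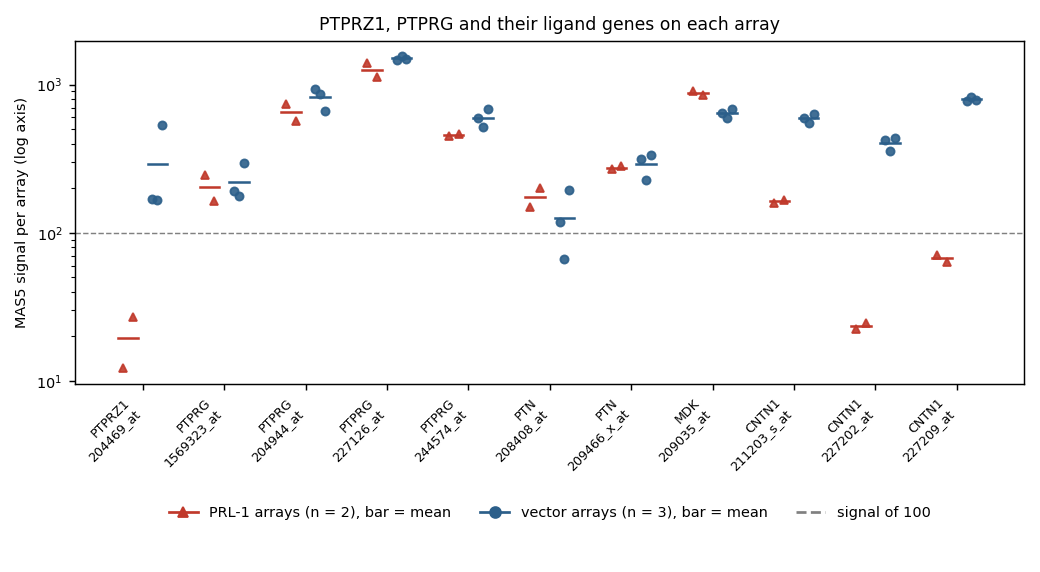
MAS5 signal (vertical log axis) on each PRL-1 array (red triangles, left of each pair) and vector array (blue circles). The probe sets are those of PTPRZ1 and PTPRG and of the PTPRZ1 partner genes PTN, MDK and CNTN1. Bars mark the mean and the dashed line marks 100. PTPRZ1 and 2 of the CNTN1 probe sets lie under 100 on both PRL-1 arrays and over 100 on all 3 vector arrays, whereas PTPRG and MDK lie over 100 throughout.

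The LAR type receptors PTPRF, PTPRD and PTPRS, which bind heparan sulfate proteoglycans and synaptic adhesion molecules and organise presynaptic sites and cell contacts, had 9 tested probe sets with 0 called and a median log2 fold change of -0.05. PTPRF was measured by 4 probe sets. The brightest (200636_s_at) gave 4183.4 and 4005.5 on the PRL-1 arrays and 4088.6, 4148.5 and 3756.6 on the vector arrays, a log2 fold change of 0.04. The one with the smallest p (200637_s_at) gave 1256.9 and 956.4 on the PRL-1 arrays and 1385.0, 1414.0 and 1191.9 on the vector arrays (-0.27, limma adjusted p 0.611, and -0.08 without PRL-1 replicate 2). Both overlapped, whereas 215066_at, at 162.5 and 219.5 on the PRL-1 arrays and 227.6, 229.9 and 328.3 on the vector arrays, did not (-0.45, adjusted p 0.624 in limma). The probe sets of PTPRF thus differ in sign, and none passed the test. PTPRD lay at -0.11, 0.20 and 0.04 in its 3 tested probe sets, and PTPRS at -0.05 and -0.03. Of 17 ligand and scaffold genes of this class 7 were measured and 0 were called, with a median of -0.06. SLITRK3, a synaptic ligand of PTPRD, had the smallest p among them, at 10.0 and 24.2 on the PRL-1 arrays and 128.0, 129.2 and 93.0 on the vector arrays. It was at least 1.15-fold lower and was not called (limma adjusted p 0.337). The next by p were PPFIBP1, a liprin (-0.25), and NTRK3, a neurotrophin receptor that binds PTPRS (0.63), and neither was called.

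The MAM domain receptors PTPRK, PTPRM and PTPRU mediate adhesion between like molecules on neighbouring cells and act on cadherin complexes. PTPRK (203038_at) gave 1650.7 and 1682.8 on the PRL-1 arrays and 1505.9, 1564.8 and 1721.4 on the vector arrays, which overlap (log2 fold change 0.06). PTPRU (211320_s_at) gave 508.5 and 505.0 on the PRL-1 arrays and 537.5, 590.6 and 946.0 on the vector arrays (-0.40, limma adjusted p 0.624). The PTPRU groups did not overlap, but the gap to the lowest vector array was small and vector replicate 3 was far above the other vector arrays. Leaving out that array gave -0.15. PTPRM showed the same array highest, with log2 fold changes of -0.33 and -0.42 and overlapping groups in 1555579_s_at (376.1 and 314.1 on the PRL-1 arrays, against 369.1, 408.6 and 532.4 on the vector arrays). Of their adherens junction partners 5 genes were measured and 0 called, with a median of 0.08 over the brightest probe set of each gene. The single genes that follow are given by their probe set with the smallest p. CDH1 (E-cadherin) gave 403.1 and 431.5 on the PRL-1 arrays and 158.2, 188.2 and 186.4 on the vector arrays, with no overlap. Its log2 fold change was 1.24 and its limma adjusted p was 0.0871. CTNNA1 lay at 0.32 and JUP (plakoglobin) at 0.31, neither of them called.

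The short-ectodomain receptors PTPRA and PTPRE activate Src family kinases by removing the inhibitory C-terminal phosphate. For PTPRA the brightest probe set (213795_s_at) gave 1063.2 and 1159.2 on the PRL-1 arrays and 1108.7, 1076.9 and 1342.8 on the vector arrays, which overlap (log2 fold change -0.08). Another (213799_s_at) gave 469.9 and 540.4 on the PRL-1 arrays and 398.3, 439.0 and 392.5 on the vector arrays, which do not overlap (0.30, limma adjusted p 0.589). The probe sets of PTPRA thus disagree in sign, and 0 were called. PTPRE lay at -0.13 in its tested probe set, close to the minimum on all arrays. Of 9 Src family and focal adhesion genes 8 were measured, with 0 called and a median of -0.05 over the brightest probe set of each gene. Values of single genes are again from the probe set with the smallest p. SRC gave 296.4 and 511.6 on the PRL-1 arrays and 101.6, 154.6 and 164.3 on the vector arrays (1.51, limma adjusted p 0.202). PXN (paxillin) gave 272.8 and 242.7 on the PRL-1 arrays and 47.1, 43.2 and 178.1 on the vector arrays (1.85, adjusted p 0.389 in limma). CSK, the kinase that places the inhibitory phosphate, gave 4552.8 and 5141.0 on the PRL-1 arrays and 6321.0, 6415.9 and 5722.4 on the vector arrays (-0.35, adjusted p 0.393 in limma). The groups did not overlap for any of these 3 genes, and none passed the test. The genes were picked by p, which favours groups that do not overlap, and 28.9% of all tested probe sets did not overlap.

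PTPRN and PTPRN2, the catalytically inactive IA-2 proteins of dense core vesicles in neuroendocrine cells, gave low signals. PTPRN (204945_at) gave 121.7 and 101.0 on the PRL-1 arrays and 136.7, 185.5 and 195.3 on the vector arrays, which do not overlap but lie close to the minimum (log2 fold change -0.62, limma adjusted p 0.575). PTPRN2 (211534_x_at) gave 27.6 and 37.2 on the PRL-1 arrays and 12.3, 175.0 and 188.8 on the vector arrays. With 1 vector array under both PRL-1 arrays the groups overlapped, and no fold is given. Of the receptors with fibronectin repeats, PTPRB (VE-PTP) of endothelium lay at -0.03 close to the minimum. PTPRO (GLEPP1), known from podocytes, was bright in 211600_at (16269.6 and 16302.2 on the PRL-1 arrays, against 15671.5, 18404.4 and 26547.7 on the vector arrays), with overlapping groups and a log2 fold change of -0.28. Its other probe sets, 1554199_at and 208121_s_at, did not reach 100 on any PRL-1 array, and 208121_s_at reached it on 1 vector array (111.5), so the probe sets disagree on whether the gene was expressed.

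**Figure D4:**
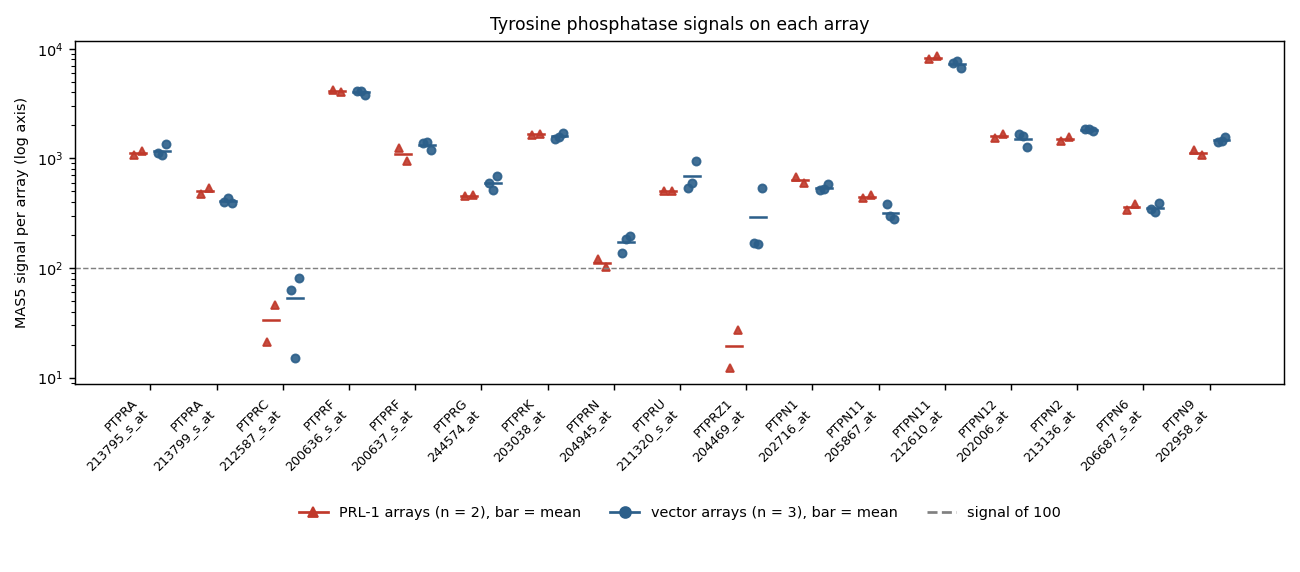
MAS5 signal (vertical log axis) on each PRL-1 array (red triangles, left of each pair) and vector array (blue circles) for 17 probe sets of named member genes, receptors first, with bars at the mean and the dashed line at 100. PTPRZ1 is the only one shown whose PRL-1 and vector arrays lie on opposite sides of 100, and PTPRC lies under it on all 5 arrays.

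The SH2 domain phosphatase PTPN11 (SHP-2), which is recruited to docking proteins and promotes Ras signalling from growth factor receptors, had 6 tested probe sets, 5 above 0 and 1 below, and none was called. The brightest (212610_at) gave 8037.6 and 8537.8 on the PRL-1 arrays and 7447.7, 7675.9 and 6717.2 on the vector arrays, a log2 fold change of 0.19 (limma adjusted p 0.627). The probe set 205867_at gave 434.8 and 462.9 on the PRL-1 arrays and 379.8, 298.3 and 282.6 on the vector arrays (0.50, 95% interval from 0.07 to 0.93, adjusted p 0.451 in limma). Neither overlapped between the groups, whereas 209895_at and 209896_s_at lay at -0.01 and 0.04. PTPN6 (SHP-1), an inhibitor of receptor signalling in blood and epithelial cells, gave 334.7 and 381.5 on the PRL-1 arrays and 345.3, 324.0 and 395.3 on the vector arrays in 206687_s_at, which overlap (0.02). Of 12 docking and adaptor genes 10 were measured and 0 called, with a median of -0.01. GAB2, a docking protein that binds PTPN11, gave 255.9 and 211.9 on the PRL-1 arrays and 383.5, 288.1 and 546.0 on the vector arrays (-0.75, adjusted p 0.426 in limma). IRS1 (0.42) and SOS1 (-0.40), an adaptor of the insulin receptor and an exchange factor for Ras, were not called either.

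PTPN1 (PTP1B), anchored on the endoplasmic reticulum, and PTPN2 (TC-PTP), found in the nucleus and on the reticulum, dephosphorylate the insulin receptor and JAK kinases. PTPN1 (202716_at) gave 677.4 and 601.7 on the PRL-1 arrays and 510.2, 527.8 and 586.3 on the vector arrays (log2 fold change 0.24, limma adjusted p 0.643). PTPN2 (213136_at) gave 1432.3 and 1569.6 on the PRL-1 arrays and 1856.0, 1854.4 and 1762.2 on the vector arrays (-0.28, 95% interval from -0.54 to -0.02, limma adjusted p 0.473). Neither overlapped, and their signs were opposite, but 3 of the 6 tested probe sets of PTPN2 lay above 0, among them 241983_at (0.49). Of 13 kinases and STATs that these enzymes act on 12 were measured, with 0 called and a median of -0.09 over the brightest probe set of each gene. For single genes the probe set with the smallest p is given. MET, the hepatocyte growth factor receptor, gave 2280.4 and 2126.6 on the PRL-1 arrays and 1807.6, 1706.8 and 1479.7 on the vector arrays, without overlap (0.41, limma adjusted p 0.358). IGF1R lay at -0.49 and STAT6 at 0.81, also without overlap and not called. MET, IGF1R and STAT6 were picked by p, which favours groups that do not overlap.

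PTPN9 (MEG2), whose Sec14 domain places it on secretory vesicles, had the smallest p of the non-receptor genes. Its probe set 202958_at gave 1194.8 and 1067.3 on the PRL-1 arrays and 1410.0, 1429.8 and 1561.7 on the vector arrays. The groups did not overlap, and the log2 fold change was -0.38 with a 95% interval from -0.66 to -0.10 and a limma adjusted p of 0.384. Its probe set 233226_at lay at -0.46, also without overlap. A further probe set, 230140_at, was under 100 on all arrays and was not tested.

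The PEST type enzymes PTPN12 and PTPN18 act on p130Cas and the ERBB2 receptor. PTPN12 (PTP-PEST, 202006_at) gave 1526.5 and 1665.6 on the PRL-1 arrays and 1662.6, 1592.8 and 1270.3 on the vector arrays, which overlap (log2 fold change 0.09). PTPN18 lay at -0.02 and at -0.22, the lower value in 213521_at, whose groups did not overlap. Among the enzymes with FERM domains, which bind the cell cortex, PTPN3 lay at 0.27 and -0.06, PTPN4 between -0.16 and -0.03 in 4 probe sets, PTPN14, a regulator of YAP, between -0.27 and 0.08 in 4, and PTPN21 between -0.09 and 0.52 in 3. PTPN13, a large scaffold with PDZ domains, lay at -0.08 and -0.22, and PTPN23, which sorts endosomal cargo, at -0.09 and -0.06. None of these was called, and the highest value of the family, 0.52 for PTPN21, came from a probe set (1320_at) whose signals lay between 41.6 and 126.6. PTPN7, which binds MAP kinases through a kinase interaction motif, lay at -0.29 with overlapping groups. Of the MAP kinases it binds only MAPK3 (ERK1) was measured, at 0.43, and it was not called (limma adjusted p 0.476).

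The related phosphatases outside the classical family had no call. With 0.192% of all tested probe sets called, this does not set them apart. Of 24 DUSP genes 18 were measured in 30 probe sets, with 0 called and a median of 0.13 over genes and 0.29 over probe sets. DUSP1, an immediate early phosphatase of MAP kinases, gave 58.3 and 61.9 on the PRL-1 arrays and 216.0, 198.0 and 287.6 on the vector arrays. It was at least 2.31-fold lower and was not called (limma adjusted p 0.0933). DUSP6, which acts on ERK, gave 344.9 and 352.2 on the PRL-1 arrays and 194.0, 156.1 and 92.8 on the vector arrays (1.30, adjusted p 0.268 in limma), and DUSP11, an RNA phosphatase, lay at 0.47. Of 19 other cysteine phosphatases, among them the PRL, CDC25 and myotubularin genes, 18 were measured, with 0 called and a median of -0.05 over genes and -0.02 over probe sets. The smallest p among them was that of MTMR4, an endosomal myotubularin (-0.33). For the classical family the median over tested probe sets was -0.06, as given above, and no difference between the families was tested.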

How the data were processed

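RNA from 2 HEK293-PRL-1 and 3 HEK293-vector cultures was hybridized to HG-U133 Plus 2.0 arrays. The authors deposited MAS5 signals, a linear intensity per probe set computed with the affy package. MAS5 corrects each probe by its mismatch, combines the probes of a set robustly and scales the arrays, here to a trimmed mean of 500. Presence calls were not used here. Genes were named through the platform annotation, updated by gene identifier. Of 54613 probe sets without controls, 41091 had 1 symbol and 1801 several, and the annotation used did not list 11721. No probe set coordinates are given because the build of the array was not given in the sources used here.

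Probe sets with a signal of at least 100 on at least 2 arrays were analysed on the log2 scale by limma 3.58.1 under R 4.3.3 (lmFit and eBayes with an intensity trend, group as the only term), two-sided, with Benjamini-Hochberg adjustment over all 33818. An adjusted p of at most 0.05 was a call. The fit was tested on simulated data. Where a group lay under 100 on each of its arrays, its mean log2 signal was replaced by that of 100, which gives the folds written as "at least". For the list medians over genes, each gene was represented by its brightest tested probe set (mean log2 signal). Values printed for single genes of a list are those of the probe set with the smallest p, unless further probe sets are given. The members and lists were chosen with earlier results of these data known. Every member gene is named. Signals on each array are given for the 10 member genes with the smallest p and for 11 members chosen for their roles. From each other list up to 3 genes were picked by p. Only some of these are given with signals, and others with a log2 fold change alone or without a value. A few further probe sets of members were chosen after their values were seen. Alternatives covered the filter, a log offset of 32, quantile normalization, median centring, the trend, array weights, a replicate block, the methods' t-test and each array left out. Promoter windows are RefSeq sequence of GRCh38.p14.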

Additional observations from a re-analysis of the deposited data

How the results depend on the processing

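Over all probe sets the number of calls depended on the processing. It was 65 as reported, 9 without the trend, 275 with array weights and 0 with the methods' t-test, and between 11 and 313 with 1 array left out (11 without PRL-1 replicate 1, 313 without vector replicate 3). Of the member probe sets 0 were called, against 1 with array weights (PTPRZ1) and 0 in the other alternatives apart from the block, those with 1 array left out included. With the replicate number as a block 448 probe sets were called in all and 1 member (PTPRZ1). The labels name biological replicates, which the paper describes as independent cultures, and neither source pairs the arrays by number. Deviations from the group means correlated at 0.064 for the arrays numbered 1 and at -0.059 for those numbered 2, and the block in effect removes vector replicate 3, which has no partner. Of 222 values of 16 named member probe sets under the 14 alternatives, 220 kept their side of the threshold and 2, both of PTPRZ1, passed it. With the signal minimum at 200, PTPRZ1 and PTPRN were not tested. Where a PRL-1 array was left out, the remaining one was taken to vary as the vector arrays do. Values under 100 and the number of arrays limit what can be said of dim members such as PTPRZ1, PTPRN2 and PTPRN.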
